A study of Mus musculus and Rattus norvegicus with 96 samples.

Results

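The lung-restricted genes of the rat TempO-Seq panel are 78 genes out of 28756 listed in both rat count tables, of which 2918 had a count in at least 1 rat library. They were chosen by their frozen levels, with a mean of at least 100 CPM in frozen rat lung and below 5 CPM in frozen rat liver, where CPM is the count of a gene divided by the total of its library and multiplied by 1000000. TempO-Seq is a targeted assay in which pairs of 25 nt detector oligos anneal side by side on an RNA and are ligated and sequenced, and the rat panel carries 2636 probes for 2603 genes. The series holds 36 rat libraries in 6 groups of 6, with male rats labelled vehicle control throughout.

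Lung came from WKY rats and liver from F344 rats, so tissue, strain and count table cannot be told apart in any lung vs. liver value. Fresh-frozen tissue (FR) was the reference in both organs. FR > FFPE tissue had been frozen before it went into 10% neutral buffered formalin for 18 to 24 h and paraffin. Directly fixed lung stayed in 10% formalin for 1 yr before embedding (FFPE 1 yr), whereas directly fixed liver (FFPE) was fixed for 18 to 24 h. The frozen libraries are titled as RNA and the embedded ones as FFPE, which the protocol describes as lysates, so the input of the assay changed with embedding as well. The labels give each rat library a number of its own and name no animal, so whether groups share animals is not known. The p-values therefore measure the spread between these libraries.

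Frozen lung replicate 54 held 12 counts in total and is left out, as the choice of the genes has it. The other libraries held 2013607 to 2505947 counts in lung FR (n = 5), 802686 to 1786809 in lung FR > FFPE, 226751 to 1634580 in lung FFPE 1 yr, 3040915 to 3970187 in liver FR, 2156625 to 3898088 in liver FR > FFPE and 139475 to 889128 in liver FFPE. A level equal to 3 counts was 3.37 to 21.5 CPM in liver FFPE libraries but 0.756 to 0.987 CPM in liver FR libraries, so single low values in directly fixed liver are coarse. As a check of the tissue labels, albumin (Alb), the main secreted protein of hepatocytes, was at 159835 CPM in frozen liver and 19.2 CPM in frozen lung. The lung label could be checked with fewer markers. Lysozyme (Lyz2), made by macrophages and alveolar type II cells, was at 119384 CPM in frozen lung and 39.7 CPM in frozen liver, but Sftpb, Sftpc, Ager, Scgb1a1 and Nkx2-1, which define alveolar and airway cells, were listed at 0 in every library. The panel is made for 2603 genes while 28756 are listed. A gene at 0 throughout may therefore have no probe, and its 0 is not read as absence.

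The lung is built of alveolar and airway epithelium, a dense capillary bed, elastic and contractile connective tissue, and a large resident immune population that meets inhaled material. Liver is mostly hepatocytes, so genes for barrier epithelium, vessel wall, matrix and immune defence that lung expresses broadly are read from a small share of liver cells. Formalin cross-links RNA to protein and fragments it, and ligation of short probes on the RNA is one way to read what is left. In bulk tissue, fewer cells of a type and less RNA per cell cannot be told apart.

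In frozen lung the 78 genes had a median of 220.3 CPM, ranging from 103 CPM (Jun) to 8133 CPM (RT1-CE4), and together they took 6.00 to 6.77% of each library. The 4 highest genes, RT1-CE4, Lamp3, AABR07060872.1 and Postn, held 45.3% of the summed level. The values just inside and outside the limits describe the edges of the choice. Jun (103 CPM) and Pygm (104 CPM) were the lowest members in lung, and Isg20 (99.4 CPM) and Msn (98.5 CPM) fell just under the minimum. Colec12 (4.97 CPM) and Hk1 (4.87 CPM) were the highest members in frozen liver, while LOC100361706 (5.03 CPM) and Npdc1 (5.15 CPM) lay just over the maximum. Among the 78, 5 belong to lists of lung cell type markers (Lamp3, Postn, Tnc, Acta2 and Ighm). Most listed markers had no count in any rat library and could not be members. Counts were held by 2 of 12 type II cell, 0 of 9 type I cell and 5 of 21 endothelial genes. In the lists of smooth muscle, fibroblasts and matrix and of lymphocytes, 13 of 24 and 11 of 22 had counts.

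By known role, 13 members belong to epithelium and took 31.2% of the summed frozen lung level. Lamp3, a lysosomal membrane protein of the lamellar bodies of type II cells (rn6 chromosome 11, 84972132 to 85000682), was at 7919, 7032, 8192, 6848 and 8256 CPM in the 5 frozen lungs. Lcn2, a secreted protein that binds bacterial siderophores, was at 4360 ± 361 CPM (SD, n = 5), and the tetraspanin Tspan8 was at 2224 ± 168 CPM. The keratins of simple epithelium Krt7 and Krt19 were at 1727 ± 151 and 308 ± 80.5 CPM, and the tight junction protein Cldn7 at 164 CPM. Cd55, which shields cells from complement, was at 1215 ± 63.2 CPM, the lysosomal amidase Naaa at 739 ± 115 CPM and the potassium channel Kcnk1 at 612 ± 75.6 CPM. Fam183b and Mlf1, genes associated with motile cilia, were at 363 and 350 CPM, and the detoxifying enzymes Gpx2 and Gstp1 at 181 and 146 CPM. Lamp3 varied little between the frozen lungs.

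The immune and blood group had 18 members and 30.6% of the summed level. RT1-CE4 and RT1-CE5 are class I major histocompatibility genes, which present peptides to T cells. RT1-CE4 was at 8247, 8986, 7891, 8027 and 7513 CPM in the frozen lungs and RT1-CE5 at 2766 ± 186 CPM. The annotated span of RT1-CE4 (rn6 chromosome 20, 4673658 to 4935888) contains RT1-CE5 (4892702 to 4896992), and the ratio of both counts lay between 2.94 and 2.96 in all 17 lung libraries. They therefore amount to about 1 measurement, although both rows are kept and counted as members throughout. The related RT1-CE7 was at 8109 CPM in frozen lung and 1447 CPM in frozen liver, and how the authors' counting split reads among these near-identical genes is uncertain. The sum over 25 RT1 genes with counts was 21158 CPM in frozen lung and 1766 CPM in frozen liver.

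The immunoglobulin heavy chain rows Ighm (chromosome 6, 138054662 to 138662512) and Igh-6 (138092131 to 138093644), made by B cells and plasma cells, also overlap, and were at 2152 ± 662 and 2132 ± 1005 CPM. Igh-6 differed from library to library more than most members, with values of 1434, 818, 2809, 2310 and 3289 CPM. Hba-a3, an alpha globin gene of red cells, was at 1398 ± 144 CPM in frozen lung and at 0 in all 6 frozen livers. Its neighbour in sequence Hba-a2 was at 1171 and 194 CPM and the beta globin Hbb at 42847 and 7469 CPM in the same tissues, so the liver libraries held globin RNA and the split of reads between the alpha globin copies is uncertain. The remaining members of the group were lower. They are the bacterial peptidoglycan sensor Nod1 (559 CPM), the scavenger receptor Colec12 (540 CPM), the class I gene RT1-N2 (346 CPM), the eosinophil chemokine Ccl11 (254 CPM), the T cell factor Lef1 (206 CPM), Herc6 (184 CPM), the exchange factor Vav3 (170 CPM), the phospholipase Pla2g2d (157 CPM), the cholesterol hydroxylase Ch25h (146 CPM), the lysosomal protein Laptm5 (138 CPM), the inhibitory receptor Lilrb4 (131 CPM), the transcription factor Runx1 (126 CPM) and Evi2a (113 CPM).

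The 12 matrix and contractile members were led by Postn, a matricellular protein of fibroblasts (chromosome 2, 143656793 to 143688088), at 6401, 5420, 5155, 5846 and 6050.5 CPM. The actin-associated proteins Nexn and Neb followed at 451 and 436 CPM, and the lectin Lgals1 at 379 CPM. Matrix proteins Mxra8, Tnc, Aebp1 and Mfap2 were at 269, 152, 137 and 136 CPM. Smooth muscle actin (Acta2) was at 148 ± 28.4 CPM, tropomyosin Tpm2 at 116 CPM, the kinase Mapk12 at 105 CPM and muscle glycogen phosphorylase Pygm at 104 CPM. Of the 10 genes of vessel wall and clotting, tissue factor (F3), the trigger of coagulation, was highest at 1011 ± 87.2 CPM. Platelet-derived growth factor B (Pdgfb, 473 CPM), the caveolar ATPase Ehd2 (461 CPM), endothelin (Edn1, 456 CPM), the thrombin receptor F2r (245 CPM), thrombomodulin (Thbd, 231 CPM), apelin (Apln, 198 CPM), the lipoprotein receptor Vldlr (136 CPM), the endothelial protein Ecscr (122 CPM) and the transcription factor Gata2 (108 CPM) completed the group.

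A mixed group of 9 genes is called growth factors, receptors and channels here, although the name does not cover each of them. It held the microtubule protein Mapt (564 CPM), the neurotrophin Bdnf (428 CPM), the morphogens Bmp4 and Bmp6 (395 and 127 CPM), the sodium channel Scn7a (363 CPM), the glutamate transporter Slc1a3 (216 CPM), the glutamate receptor Grm3 (208 CPM), Olfm1 (126 CPM) and the potassium channel Kcnk2 (114 CPM). A further 12 genes serve signalling, stress and metabolism. They ranged from a regulatory subunit of protein kinase A (Prkar2b, 517 CPM), the membrane-binding protein Anxa2 (225 CPM), the ketone body enzyme Oxct1 (193 CPM) and the stress gene Ddit4 (175 CPM) through Acss1 (152 CPM), B4galt2 (143 CPM), the phosphatase Dusp14 (125 CPM) and hexokinase Hk1 (111 CPM) to Scd2, Gadd45b and Arhgap1 (each 106 CPM) and Jun (103 CPM). AABR07060872.1, a locus with no gene name (chromosome 4, 98337367 to 98523474), was at 6896, 4724, 8508, 8244 and 9376 CPM, and LOC100912195, Fam129b and Pqlc3 were at 309, 291 and 108 CPM.

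**Figure D1:**
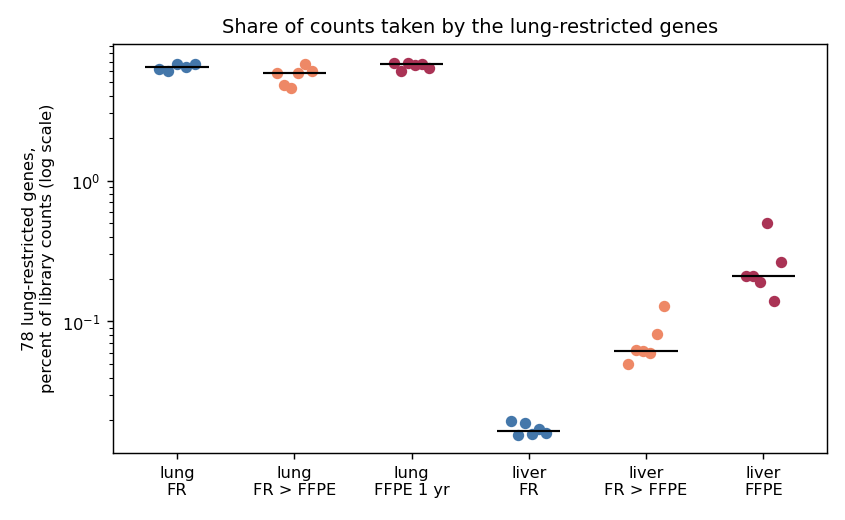
Percent of each library's counts taken by the 78 lung-restricted genes (log scale) in the 3 rat lung and 3 rat liver groups, with 1 point per library and a line at the median (lung FR n = 5, others n = 6). The lung libraries sit between 4.53 and 6.88%, frozen liver between 0.0157 and 0.0198%, and embedded liver between 0.0501 and 0.499%.

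Embedding left the genes as a group at about the same share of lung counts, while single genes moved. They took 4.53 to 6.72% of counts in lung FR > FFPE and 5.97 to 6.88% in lung FFPE 1 yr, next to 6.00 to 6.77% in FR. All 78 members had at least 10 counts in each of the 17 lung libraries. By the ratio of mean CPM to frozen lung, the median member was at a log2 ratio of 0.00054 in FR > FFPE and 0.23 in FFPE 1 yr. In FR > FFPE, 15 members were at least 2-fold higher than frozen and 15 at least 2-fold lower (19.2% each), and in FFPE 1 yr the numbers were 13 and 7 (16.7% and 8.97%). Among the 839 other genes with at least 100 CPM in frozen lung, the median log2 ratio was −0.09 and −0.04, with 12.6% and 15.5% at least 2-fold higher or lower in FR > FFPE and 8.58% and 10.3% in FFPE 1 yr. With TMM scaling, which equalises the typical gene between libraries, the medians of the members were −0.64 and −0.43 and those of the other genes −0.75 and −0.71. Then 4 members were at least 2-fold higher and 23 at least 2-fold lower in FR > FFPE, and 0 and 20 in FFPE 1 yr, so both these counts and the sign of a level against frozen lung depend on the scaling. These values describe the groups and carry no test, because the frozen lungs chose the genes.

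The epithelial genes Lamp3, Lcn2 and Krt7 were lower in embedded lung with either scaling. Lamp3 had a lowest, median and highest value of 439, 1912 and 3185 CPM in FR > FFPE and of 2591, 3309 and 3707 CPM in FFPE 1 yr, and no embedded library reached the lowest frozen value. Lcn2 (1075, 1335 and 2142 CPM in FR > FFPE) and Krt7 (360, 542 and 907 CPM) also stayed below every frozen lung. Of the 13 epithelial members, 6 were at least 2-fold lower and 2 at least 2-fold higher than frozen in FR > FFPE (6 and 0 with TMM). The 2 higher ones by CPM were Krt19, with means of 813 and 701 CPM in both embedded groups against 308 CPM, and Cldn7, with 344 and 360 CPM against 164 CPM. Krt7 and Krt19 thus lay on opposite sides of frozen lung, also with TMM, where their log2 ratios were −2.19 and 0.74 in FR > FFPE.

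Vessel wall members lay higher than the other groups, with a median log2 ratio of 0.86 in FR > FFPE and 0.54 in FFPE 1 yr (0.20 and −0.10 with TMM, the latter a change of sign), and 5 of 10 were at least 2-fold higher in FR > FFPE (2 of 10 with TMM). The endothelium marker list, none of it a member, went the other way by CPM when summed. Its 5 genes with counts summed to 16594 to 18600 CPM in frozen lung. The sum was 6468 to 13450 CPM in FR > FFPE and 8117 to 12223 CPM in FFPE 1 yr. Of these genes, Eng alone was higher than frozen in both embedded groups (333 CPM, then 903 and 798 CPM). Cav1 (5904 CPM, then 1727 and 1920 CPM) and Ramp2 (5104 CPM, then 1350 and 2222 CPM) were lower in both. In the same order Kdr was at 3949, 3937 and 2820 CPM and Vwf at 2135, 1634 and 2692 CPM. F2r was at 779 CPM, Pdgfb at 1239 CPM and Gata2 at 393 CPM in FR > FFPE, whereas F3 was lower, at 389 CPM. Among immune genes Ighm was at 6909 ± 3310 CPM in FR > FFPE and 5725 ± 2140 CPM in FFPE 1 yr, and all 12 embedded values were above the highest frozen value of 3144 CPM. RT1-CE4 had a lowest, median and highest value of 2259, 6639 and 9739 CPM in FR > FFPE, which spanned the frozen range, and of 9722, 10967 and 12286 CPM in FFPE 1 yr, which lay above it, although with TMM its log2 ratio was −0.24 there. The greatest ratio in FR > FFPE was that of Arhgap1, with a log2 ratio of 2.30 (522 ± 235 CPM). In FFPE 1 yr its log2 ratio was 1.54 (308 ± 69.8 CPM), below those of Tpm2 (1.67) and Scd2 (1.61). With TMM these 3 ratios were 0.89, 0.93 and 0.96. Tpm2 was at 365 to 745 CPM in FFPE 1 yr replicates 61, 63 and 65 and at 152 to 209 CPM in replicates 62, 64 and 66. Ranks were kept more closely between both embedded groups (Spearman's rank correlation 0.92 over the 78 genes) than between frozen and FR > FFPE lung (0.70) or frozen and FFPE 1 yr lung (0.77). The points of these correlations share libraries and probes, and they are given as a description.

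**Figure D2:**
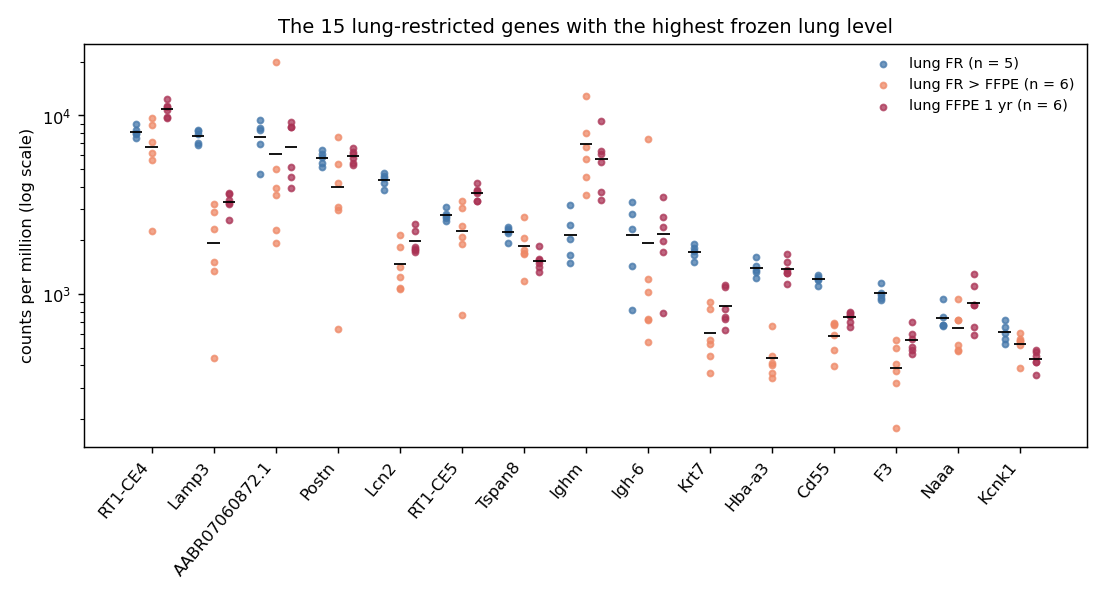
CPM (log scale) of the 15 lung-restricted genes with the highest frozen lung level in each library of lung FR (n = 5), FR > FFPE (n = 6) and FFPE 1 yr (n = 6), with a line at each group mean. Lamp3, Lcn2, Krt7, Cd55 and F3 lie lower in both embedded groups than in frozen lung, Ighm lies higher, and Hba-a3 is lower in FR > FFPE.

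Replicates of FR > FFPE lung were the most spread. The median coefficient of variation of the members was 11.1% in frozen lung, 28.3% in FR > FFPE and 17.0% in FFPE 1 yr. Replicates 57 and 59 of FR > FFPE stood apart. Replicate 57 had the lowest Lamp3 (439 CPM), Postn (638 CPM) and RT1-CE4 (2259 CPM) and the highest Ighm (12875 CPM), while replicate 59 had 19836 CPM of AABR07060872.1 and 7410 CPM of Igh-6, against at most 4999 and 1211 CPM in the other 5. The summed level of the lymphocyte marker list, which contains Ighm, was 35610 and 44208 CPM in these libraries and 11829 to 21450 CPM in the other 4. This sum mainly followed Cd74 and Ighm. Over the FR > FFPE lungs Cd74 had a mean of 16873 ± 10586 CPM and Ighm of 6909 CPM, in a mean sum of 24780 CPM. No other gene of the list had a mean above 203 CPM there. The list has 22 genes with a row, of which 11 had counts. Cd3e and Cd79a were at 0 throughout and may have no probe, and the part of lymphocytes in these values was not tested.

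The embedded lung groups, which had no part in choosing the genes, were tested against each other. They differ both in freezing before fixation and in time in formalin (1 yr against 18 to 24 h), and these cannot be told apart. With FFPE 1 yr vs. FR > FFPE, 3 of 78 members were higher and none lower when a call required a 2-fold change and, in the quasi-likelihood test of edgeR, an adjusted p (Benjamini-Hochberg) under 0.05. All 78 passed the filter on low counts. Across the 2221 genes tested, 4.64% were higher and 5.45% lower, so the members' 3.85% higher lay near the background. At an unadjusted p under 0.05, 19 members were higher and 8 lower, and DESeq2 also called none lower. The median log2 fold change was 0.05 for the members and −0.03 for all genes.

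Hba-a3 was the clearest of the 3. Its lowest, median and highest values were 340, 408 and 667 CPM in FR > FFPE and 1144, 1341 and 1687 CPM in FFPE 1 yr, and the groups did not overlap (log2 fold change 1.66 ± 0.20 SE, adjusted p = 2.79e-04). The 3 blood genes that served as a check, Hba-a2, Hbb and Alas2, summed to 9155 to 26718 CPM in FR > FFPE, 23803 to 35571 CPM in FFPE 1 yr and 33561 to 48778 CPM in frozen lung, and the part of blood content in the Hba-a3 value was not tested. Aebp1, a collagen-binding matrix protein (chromosome 14, 86101277 to 86111307), ran from 34.9 through a median of 58.7 to 72.4 CPM in FR > FFPE and from 41.8 through 213 to 378 CPM in FFPE 1 yr. The groups overlapped through FFPE 1 yr replicate 62 (41.8 CPM), and replicate 61 (72.5 CPM) lay at the highest FR > FFPE value. The other FFPE 1 yr libraries were at 201 CPM or more (log2 fold change 1.82 ± 0.41 SE, adjusted p = 0.00657).

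Acta2 (chromosome 1, 252537615 to 252550395) had values of 45.6, 149 and 240 CPM in FR > FFPE and of 170, 357 and 811 CPM in FFPE 1 yr (log2 fold change 1.53 ± 0.44 SE, adjusted p = 0.0215). Its FFPE 1 yr libraries split into 3 at 507 to 811 CPM and 3 at 170 to 208 CPM, and the call was lost without replicate 63, where the log2 fold change was 1.25. The list of smooth muscle, fibroblast and matrix genes, of which Acta2 is one, summed to 9445 to 19021 CPM in FR > FFPE and 12689 to 19313 CPM in FFPE 1 yr. Without FR > FFPE replicate 59, 5 members were higher instead of 3.

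A smaller change passed the adjusted p alone in 8 members. Besides the 3 named, these were Fam129b, Lgals1 and Olfm1 (log2 fold changes of 0.79, 0.76 and 0.76) and, lower in FFPE 1 yr, Nod1 and Ehd2 (−0.80 and −0.56). Nod1 was at 749, 944 and 1304 CPM in FR > FFPE and at 437, 592 and 688 CPM in FFPE 1 yr, so its groups did not overlap although the change was under 2-fold. By role, 2 of 12 matrix and contractile genes and 1 of 18 immune and blood genes were called, and 0 of 13 epithelial, 0 of 10 vessel wall, 0 of 9 growth factor, receptor and channel, 0 of 12 signalling, stress and metabolism and 0 of 4 little known genes. Lamp3 (log2 fold change 0.78 ± 0.34 SE, adjusted p = 0.106) and RT1-CE4 (0.72 ± 0.27 SE, adjusted p = 0.0635) did not pass.

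**Figure D3:**
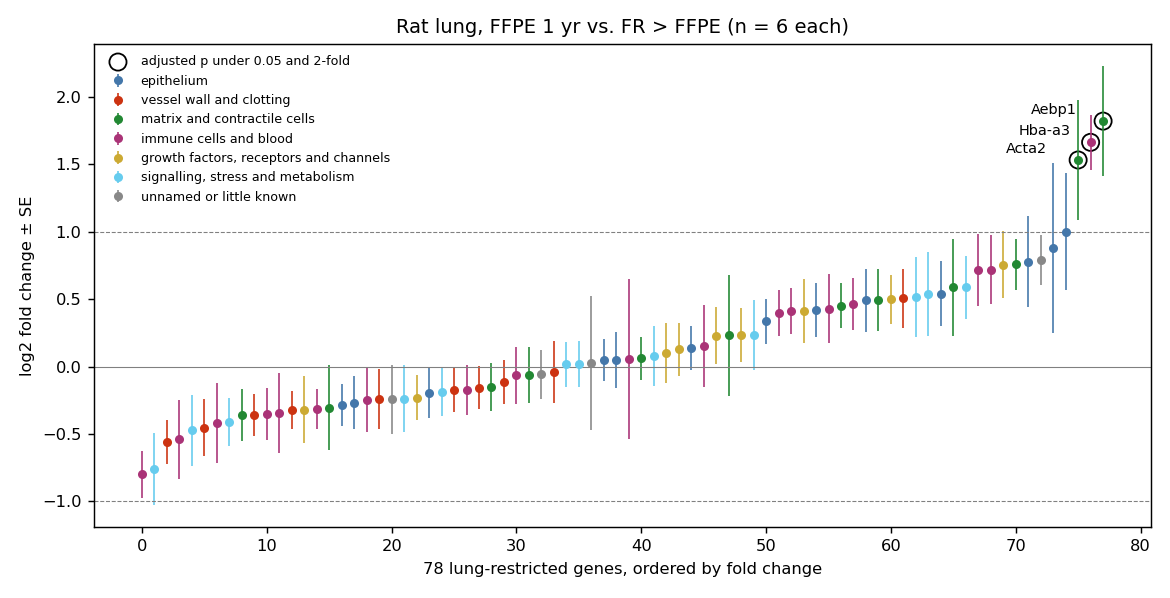
Log2 fold change ± SE of FFPE 1 yr vs. FR > FFPE rat lung (n = 6 each, TMM scaling) for the 78 lung-restricted genes in order of fold change, coloured by known role, with rings on called genes and dashed lines at a 2-fold change. Acta2, Hba-a3 and Aebp1 are called, and the other points lie between −0.80 and 1.00.

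The genes were read at low but higher levels in embedded than in frozen liver. They took 0.0157 to 0.0198% of counts in frozen liver, 0.0501 to 0.129% in FR > FFPE and 0.139 to 0.499% in FFPE. The median member was at 2.08 CPM in frozen, 8.38 CPM in FR > FFPE and 26.1 CPM in FFPE liver, and 0, 60 and 75 of the 78 were at or over 5 CPM. Frozen liver chose the genes for being under 5 CPM, so a higher level elsewhere was partly built into the choice and is given without a test. In frozen liver 8 to 13 members had no count in a library, in FR > FFPE 1 to 3 and in FFPE 2 to 8, although the FFPE libraries were the least deep.

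Genes that lung expressed weakly or not at all gave the scale for these values. The 424 genes under 5 CPM in frozen liver and between 5 and 100 CPM in frozen lung had medians of 1.44, 6.63 and 26.9 CPM in the same 3 liver groups, and 267 and 383 of them were at or over 5 CPM in FR > FFPE and FFPE liver, the latter 90.3%, next to 76.9% and 96.2% of the members. The 925 genes with some count but under 5 CPM in both frozen organs had medians of 0.042, 0.336 and 0.649 CPM, with 18.2% and 39.1% at or over 5 CPM. The level of a member in embedded liver followed its frozen lung level little in rank, with Spearman's rank correlations of −0.01 for FR > FFPE and −0.23 for FFPE over the 78 genes. Within liver the ranks of frozen and FR > FFPE tissue correlated at 0.66, and those of FR > FFPE and FFPE at 0.42. Hepatocyte marker genes were also read at a higher sum in embedded than in frozen lung. The 20 hepatocyte markers with counts summed to 264 to 403 CPM in frozen lung, 1563 to 2770 CPM in FR > FFPE and 894 to 5100 CPM in FFPE 1 yr lung, against at least 181087 CPM in every liver library. The genes did not keep their liver proportions. In FR > FFPE lung Cyp3a2 was highest, at 1030 CPM against 1.53 CPM in frozen lung, and Alb was at 78.8 CPM. In FR > FFPE liver Cyp3a2 was at 8042 CPM and Alb at 152964 CPM. Serpina1 alone was lower in FR > FFPE than in frozen lung (46.5 and 95.6 CPM).

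**Figure D4:**
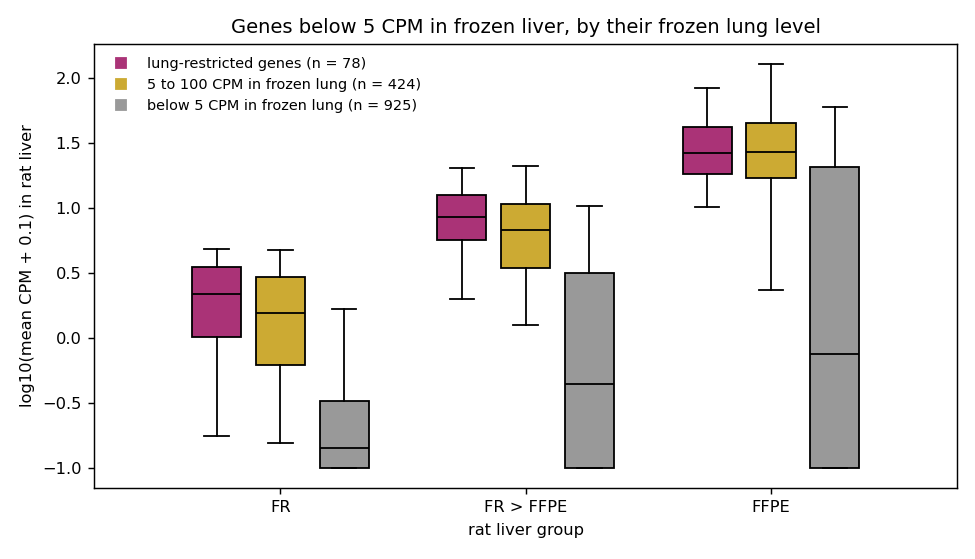
Level in rat liver, as log10(mean CPM + 0.1), of genes under 5 CPM in frozen liver, in FR, FR > FFPE and FFPE liver (n = 6 libraries each), for 78 lung-restricted genes, 424 genes at 5 to 100 CPM and 925 genes under 5 CPM in frozen lung. Boxes show quartiles and the median, and whiskers the 5th to 95th percentiles. The lung-restricted genes, with medians of 2.08, 8.38 and 26.1 CPM, track the genes with 5 to 100 CPM in lung.

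The members with the highest mean over the 12 embedded liver libraries were Bmp4, Arhgap1, Ighm, Dusp14 and Hk1, of which Ighm alone was also among the 15 highest in frozen lung. These were also the 5 highest in FFPE liver, where levels were higher than in FR > FFPE liver. In FR > FFPE liver the highest means were those of Arhgap1 (35.9 CPM), Ighm (29.1 CPM), Colec12 (26.3 CPM), Vav3 (20.5 CPM) and Tspan8 (20.2 CPM), with Bmp4, Dusp14 and Hk1 lower, at 13.9, 13.5 and 11.6 CPM. Bmp4, a morphogen of the transforming growth factor family, had a lowest, median and highest value of 6.67, 14.4 and 21.0 CPM in FR > FFPE and of 59.6, 110 and 301 CPM in FFPE liver, with no overlap. Arhgap1 had 15.3, 33.5 and 57.4 CPM in FR > FFPE and 71.7, 104 and 154 CPM in FFPE, and Ighm 15.9, 27.9 and 40.5 CPM and 54.5, 83.2 and 114 CPM, in both cases without overlap in CPM. In contrast, Lamp3 was at 1.86, 3.86 and 6.08 CPM in FR > FFPE, and in FFPE at 2.08, 4.20 and 50.2 CPM, where replicate 82 alone exceeded 15.2 CPM. Postn likewise had a median of 5.57 CPM in FR > FFPE and 7.12 CPM in FFPE liver. Hba-a3 was at 0 in all 18 liver libraries, while Hba-a2 was at 269 and 261 CPM in FR > FFPE and FFPE liver. RT1-CE4 was at 2.04, 5.53 and 13.5 CPM and then 12.8, 25.7 and 104 CPM, beside 3554 and 2026 CPM of RT1-CE7.

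Liver FFPE vs. FR > FFPE could be tested for 63 of the 78 members, since 15, among them Lamp3, Postn, RT1-CE5, Igh-6 and Hba-a3, did not pass the filter on low counts. A member could pass through the group in which it was higher, so the counts that follow describe the members that passed. Of the 23 called higher, 7 met the filter's level of 6.57 CPM in every FR > FFPE library, and neither of the 2 called lower met it in every FFPE library. With no filter, 77 members could be tested, all but Hba-a3, and 22 were higher and 3 lower, with a median log2 fold change of 0.71 against 0.02 for the 2630 genes tested. With the filter, of the 63, 23 were higher and 2 lower in FFPE liver (36.5% higher), where 22% of the 2144 genes tested were higher and 11% lower. The median log2 fold change was 0.79 for these members and 0.08 for all genes. This rests on TMM scaling. Column totals moved the median of all genes by 0.88 to 0.96, called 985 genes higher and 30 lower in place of 471 and 235, and called 43 members higher and 0 lower, while the members' median exceeded that of all genes by 0.71 with TMM and 0.75 without.

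The called genes were of several roles, where 22% of all genes tested were called higher. The 7 that met the filter's level in every FR > FFPE library were Bmp4, Dusp14, Gstp1, Hk1, Mapt, Pla2g2d and RT1-N2. No vessel wall gene was among them, and the counts by role describe only the members that passed the filter. Of the 9 genes grouped as growth factors, receptors and channels, 7 were tested and 6 were higher, Mapt and Slc1a3 included. Among them were Bmp4 (log2 fold change 2.39 ± 0.31 SE, adjusted p = 7.68e-06) and Kcnk2 (2.75 ± 0.50 SE, adjusted p = 1.34e-04 with no filter). Of 8 vessel wall genes tested 4 were higher, including F3 (1.16 ± 0.34 SE, adjusted p = 0.00878 with no filter), and 3 of 11 epithelial genes were higher, among them Lcn2 (3.38 ± 0.53 SE, adjusted p = 2.40e-05 with no filter). Lcn2, also an acute phase gene of hepatocytes, was at 0, 1.2 and 4.39 CPM in FR > FFPE and at 15.6, 42.1 and 57.4 CPM in FFPE liver, without overlap. Of 11 signalling, stress and metabolism genes tested 3 were higher, namely Gadd45b (2.31), Hk1 (1.92) and Dusp14 (1.70). Acta2 was the only one of 9 matrix and contractile genes (1.5 ± 0.5 SE, adjusted p = 0.0175), a call that was lost without FFPE replicate 84 at a log2 fold change of 1.2, and 1 of 3 little known genes, LOC100912195, was higher.

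Of the 14 immune genes tested, 5 were higher (RT1-CE4, RT1-N2, Ch25h, Pla2g2d and Lef1), and the 2 genes that were lower, Colec12 (−1.42 ± 0.37 SE, adjusted p = 0.00385) and Ccl11 (−1.51 ± 0.41 SE, adjusted p = 0.00503), are also of this group. Their values were 12.8, 26 and 47.6 CPM (Colec12) and 10.5, 12.2 and 29.4 CPM (Ccl11) in FR > FFPE, and 6.23, 17.5 and 50.2 CPM and 3.89, 8.39 and 35.9 CPM in FFPE liver, so the groups overlapped in CPM. Arhgap1 (0.71) and Ighm (0.65) did not pass although their CPM did not overlap. FFPE replicate 82, the least deep liver library with 139475 counts and the highest share of members (0.499%, against 0.139 to 0.264% in the other 5), gave the highest value of Bmp4, Lcn2, F3 and RT1-CE4. Without it, 20 members were higher and 3 lower, and the F3 call was lost at a log2 fold change of 0.99.

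Some members differed among the FR > FFPE livers. Krt7, which in liver marks bile ducts, was at 2.05, 5.49 and 1.39 CPM in replicates 73 to 75 and at 19.5, 33.8 and 38.8 CPM in replicates 76 to 78, a gap chosen after the values were seen. Replicate 78 had the largest share of members of its group (0.129%) and the highest Tnc, Kcnk1 and AABR07060872.1. Without replicate 78, 51 instead of 60 members were at or over 5 CPM in FR > FFPE liver.

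Lung still exceeded liver for nearly all of the genes after embedding. In FR > FFPE tissue, all 78 members were higher in lung at an adjusted p under 0.05 and a 2-fold change, and 39% of the 2302 genes tested were higher in lung and 21.1% lower. In directly fixed tissue, FFPE 1 yr lung vs. FFPE liver, 73 of 78 were higher and none lower in edgeR, where 23.1% of genes were higher and 24.7% lower. At an unadjusted p under 0.05, 76 members were higher and 0 lower, and DESeq2 called 0 lower. The median log2 fold change of the members was 3.41 in FR > FFPE and 2.84 in directly fixed tissue, and that of all genes 0.64 and 0.07, so the members stood 2.77 and 2.78 above the typical gene. With column totals the medians of all genes were 2.32 and 0.86 and the members stood 2.74 and 2.77 above them. All 78 passed the filter, which lung alone could satisfy. The libraries tested were not those that chose the genes, but whether they share animals with those is not known.

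Several of the most abundant genes were far apart between the organs. In FR > FFPE tissue the log2 fold change of lung over liver was 8.36 ± 0.44 SE for RT1-CE4, 7.91 ± 0.40 SE for Lcn2, 7.75 ± 0.46 SE for Postn, 7.69 ± 0.55 SE for AABR07060872.1 and 7.23 ± 0.46 SE for Lamp3. In directly fixed tissue Postn (8.65 ± 0.52 SE), Lamp3 (7.79 ± 0.51 SE), RT1-CE4 (7.73 ± 0.43 SE) and AABR07060872.1 (7.19 ± 0.56 SE) were again far apart, while Lcn2 was at 4.91 ± 0.34 SE (adjusted p at most 2.04e-12 for each of these 5 in both fits). The order did not follow abundance throughout, since Nexn, at 451 CPM in frozen lung, reached 6.21 ± 0.35 SE and 6.89 ± 0.44 SE, the latter above Lcn2. Hba-a3 was at least 2504-fold higher in FR > FFPE lung and at least 1210-fold higher in FFPE 1 yr lung than a floor of 3 counts over the 6 liver libraries of the group. The sum of Hba-a2 and Hba-a3 was much closer between the organs. It was 1008 and 269 CPM in FR > FFPE lung and liver, and 2806 and 261 CPM in FFPE 1 yr lung and FFPE liver. The Hba-a3 ratios thus depend on the uncertain split of reads between the alpha globin copies. By role, the median log2 fold change in FR > FFPE tissue was highest for vessel wall genes (4.54) and epithelium (4.23) and lowest for matrix and contractile genes (2.46). In directly fixed tissue it was highest for the 4 little known genes (5.41) and epithelium (4.12), and lowest for growth factors, receptors and channels (1.92) and signalling, stress and metabolism (2.01), with vessel wall at 3.38.

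The 5 genes that were not called in directly fixed tissue were Bmp4, Arhgap1, Dusp14, Hk1 and Gadd45b, of which the first 4 were also the highest members in FFPE liver. Hk1 was at 72.8, 106 and 282 CPM in FFPE 1 yr lung and at 30.5, 75.6 and 179 CPM in FFPE liver, which overlap widely (log2 fold change −0.06 ± 0.32 SE, adjusted p = 0.897). Gadd45b (0.44 ± 0.29 SE, adjusted p = 0.187) and Arhgap1 (0.70 ± 0.32 SE, adjusted p = 0.0539) did not pass the adjusted p, whereas Bmp4 (0.94 ± 0.28 SE, adjusted p = 0.00446) and Dusp14 (adjusted p = 0.00676) passed it at just under 2-fold. All 5 were higher in lung in FR > FFPE tissue, with log2 fold changes of 1.34 to 3.08. Whether the lung to liver difference itself changed between these preparations was not tested, since lung was fixed for 1 yr and liver for 18 to 24 h.

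On unscaled mean CPM, the median member was 135-fold higher in lung than in liver in frozen tissue, where the choice set the ratio, 33.2-fold in FR > FFPE and 10.6-fold in directly fixed tissue, over the 75, 77 and 76 members with a liver count. Taking the members at 0 in liver at their floor moved the median log2 ratios from 7.07, 5.05 and 3.40 to 7.22, 5.08 and 3.46. None of the members was under 8-fold in frozen tissue, 1 was in FR > FFPE and 29 were in directly fixed tissue. Of the 74 genes with a ratio in all 3 preparations, 67 had a smaller ratio in directly fixed than in FR > FFPE tissue, as had the typical gene on column totals.

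**Figure D5:**
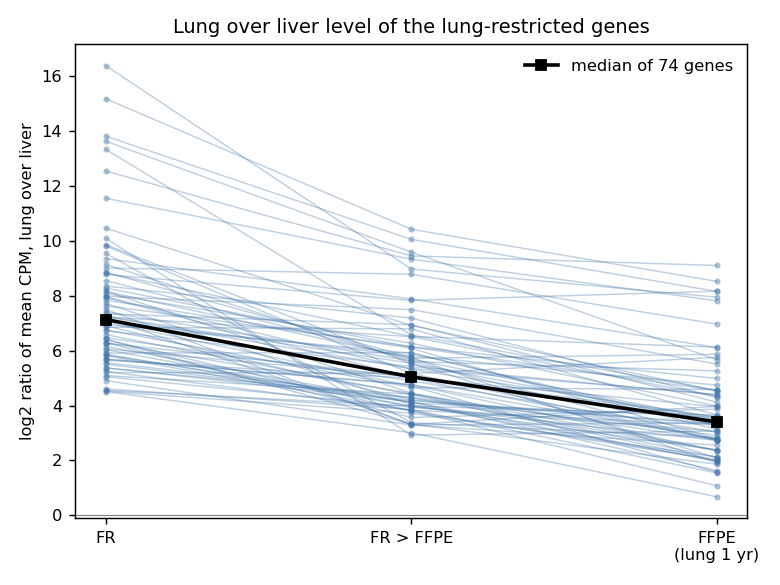
Log2 ratio of mean CPM in lung over liver for the 74 lung-restricted genes with a count in all 3 liver groups, with 1 line per gene across FR, FR > FFPE and directly fixed tissue (lung 1 yr, liver 18 to 24 h) and the median in black. The medians are 7.14, 5.05 and 3.40, and no gene falls below 0.

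RT1-CE4 had the highest frozen lung level, and the genes whose log2(CPM + 1) over the 12 embedded lung libraries was most like it were RT1-CE5 (Pearson's r above 0.99, the shared reads described above), Lamp3 (0.98) and Snx13 (0.97), a sorting nexin that is not among the 78. These correlations span 2 groups of libraries that differ in depth and fixation, and they are given as a description.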

How the data were processed

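The authors deposited estimated counts per gene for rat lung and rat liver in separate tables. The submitters' processing notes name STAR 2.5.3a, CASAVA 1.8.2 and Partek, and an expectation-maximisation step in Partek Flow is described for mouse RNA-seq libraries. How reads of the rat tables were divided among overlapping genes is not given in the sources used here. Coordinates are those of the deposited rn6 annotation. Most values are whole (99.1% in both tables, zeros included, within 1e-06), and the rest were rounded for tests.

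CPM used column totals. Tests were run with edgeR 4.0.16 in R 4.3.3 (filterByExpr, TMM, quasi-likelihood, Benjamini-Hochberg over all genes tested) on embedded libraries only. Lung vs. liver was fitted on raw counts of the 24 embedded libraries joined by gene. SE is the unshrunken log2 fold change divided by the square root of F. Fits were tested on simulated data. Alternatives were column totals, DESeq2 1.42.0, no filter, adjusted p alone and leaving out each library.

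The members, role groups and lists were chosen with earlier results of these data known. All 78 members are named by role. Further values follow a rule (the 15 highest in frozen lung, the largest called changes in embedded lung, the 5 highest in embedded liver and members of lung cell type lists, 22 genes in all), and other genes with test values, such as Kcnk2, Gadd45b, Nod1, Colec12 and Ccl11, were chosen after their values were seen. Replicate pairs differed by more than counting noise (chi-square per degree of freedom of at least 2.56). Floors of 3 counts cover counting error only. Mouse and AML12 libraries and the authors' log2 tables were not used.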

Additional observations from a re-analysis of the deposited data

Results flagged for a closer look

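Of 109 sets of values checked, 12 held a library far from the others of its group, where chance gives about 1 in 20. In lung FR > FFPE, replicate 59 had 19836 CPM of AABR07060872.1 (the other 5 were at 1937 to 4999 CPM) and 7410 CPM of Igh-6 (others 542 to 1211 CPM), and replicate 57 had 667 CPM of Hba-a3 (others 340 to 448 CPM). In liver FR > FFPE, replicate 78 had 17.2 CPM of AABR07060872.1 (others 6.51 to 10.2 CPM), 17.6 CPM of Kcnk1 (others 3.71 to 6.86 CPM) and 18.9 CPM of Tnc (others 5.03 to 7.23 CPM). In liver FFPE, replicate 82 had 0.499% of its counts in the 78 genes (others 0.139 to 0.264%), with 104 CPM of RT1-CE4, 50.2 CPM of Lamp3, 50.2 CPM of Igh-6, 115 CPM of F3 and 129 CPM of Tnc, where the other 5 libraries reached at most 44.6, 15.2, 18.3, 48.7 and 36.6 CPM. In replicate 82, the least deep liver library, 3 counts equal 21.5 CPM.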

How the results depend on the processing

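The number of members was 28 with TMM library sizes, 123 and 42 with a lung minimum of 50 and 200 CPM, 22 and 142 with a liver maximum of 1 and 10 CPM, and 75 to 81 without single frozen libraries. In lung FFPE 1 yr vs. FR > FFPE, the adjusted p alone called 475 genes, with 6 members higher and 2 lower, and leaving out single libraries gave 2 to 5 members higher. In liver FFPE vs. FR > FFPE, column totals called 43 members higher and 0 lower, and leaving out single libraries gave 1 to 3 lower and 19 to 28 higher. The share of all called genes that were higher moved from 66.7% to 97.0% there and, with lung vs. liver, from 64.9% to 87.5% in FR > FFPE and from 48.3% to 76.3% in directly fixed tissue, while 78 and 77 members were called higher in the last 2. The median log2 ratio of the members to frozen lung was −0.64 and −0.43 with TMM, and the counts at least 2-fold from frozen lung under TMM, chosen after seeing the data, were 4 higher and 23 lower in FR > FFPE and 0 and 20 in FFPE 1 yr. Of 800 fold changes of named members under alternatives, 796 kept their direction and call, and 4 lost the call in the same direction (Acta2 without lung FFPE 1 yr replicate 63 and, in liver, without FFPE replicate 84, F3 without liver FFPE replicate 82, and Hk1 lung vs. liver with DESeq2). The cause of these changes was not tested. No paired analysis was possible because the rat libraries each carry a number of their own. Depth limits values in directly fixed liver.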
